A study of Mus musculus with 16 samples.

Results

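The genes described here encode 9 interferon-inducible GTPases of mouse: Irgm1, Irgm2, Igtp and Iigp1 of the immunity-related GTPase (IRG) family, Gbp2, Gbp3 and Gbp7 of the guanylate-binding protein (GBP) family, and Mx1 and Mx2 of the MX family. They were taken by name from the 24485 genes in the files. The 9 had been selected on their FPKM in these same libraries, so their values by line and day are a description. The RNA came from 2 lines of immortalized mouse embryonic fibroblasts (iMEFs), connective tissue cells kept in culture. Both lines carry R26M2rtTA/+, a transactivator that doxycycline turns on, and TetOcre, a Cre recombinase under its control. The line called exp is Sdhcfl/fl and the line called ctl is Sdhcfl/wt. Doxycycline was given to both lines, and each was sampled at days 0, 5, 9, 12, 16 and 20, which gave 16 libraries: 3 biological replicates of either line at day 16 and 1 library for each other line and day. Each genotype is 1 line, so line and genotype cannot be told apart, every comparison at a day other than 16 has no replicate of its own, and every p-value measures the spread between libraries of these 2 lines. No library kept without doxycycline after day 0 is analysed here.

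Interferons are secreted proteins that bind receptors on the cell surface and switch on a set of antiviral and antimicrobial genes through the kinases JAK1, JAK2 and TYK2 and transcription factors of the STAT and IRF families. The GTPases belong to that set. IRG and GBP proteins gather on the vacuoles in which intracellular bacteria and parasites live and help to break them open, and MX proteins form rings that block the replication of viruses. Type I interferon acts mainly through the interferon-stimulated response element (ISRE), and interferon gamma mainly through the gamma-activated site (GAS).

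The upstream sequences are shown because IRG and GBP genes are known to be reached through those 2 elements. Any part of the elements in the levels described here was not tested. Of the 9 genes, 6 had an upstream sequence that is printed here, from RefSeq's GRCm38.p6 table. Each was found exactly once on its chromosome in the mm9 build that the files use. They run 5′ to 3′ on the gene's own strand and end at the base before the RefSeq transcript start, except that of Gbp2, which stops 42 bases before it. Capitals mark the bases that match the ISRE core, searched on both strands as GAAA, any 2 bases and GAAA again, so that a match on the opposite strand reads TTTC, any 2 bases and TTTC.
Irgm1, chr11:48684923-48685042, minus strand: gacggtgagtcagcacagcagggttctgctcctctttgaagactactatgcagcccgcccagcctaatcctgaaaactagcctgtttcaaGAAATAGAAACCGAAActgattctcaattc
Irgm2, chr11:58028359-58028478, plus strand: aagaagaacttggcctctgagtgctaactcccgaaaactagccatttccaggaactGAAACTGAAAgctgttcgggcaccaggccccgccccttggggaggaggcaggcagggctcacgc
Igtp, chr11:58012938-58013057, plus strand: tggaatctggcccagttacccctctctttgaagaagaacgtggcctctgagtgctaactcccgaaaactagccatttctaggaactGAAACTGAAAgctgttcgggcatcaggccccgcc
Gbp2, chr3:142283507-142283585, plus strand: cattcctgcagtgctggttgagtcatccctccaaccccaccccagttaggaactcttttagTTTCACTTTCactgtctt
Gbp3, chr3:142222888-142223007, plus strand: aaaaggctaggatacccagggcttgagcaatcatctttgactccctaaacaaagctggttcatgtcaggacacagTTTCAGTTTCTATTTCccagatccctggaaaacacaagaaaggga
Gbp7, chr3:142193180-142193299, plus strand: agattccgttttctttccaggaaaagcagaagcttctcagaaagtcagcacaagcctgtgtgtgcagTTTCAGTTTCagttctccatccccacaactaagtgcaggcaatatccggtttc

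All 6 printed sequences, each from the first listed start of its gene, held the ISRE core within the 250 bases before that start. Of the 32851 RefSeq promoter windows of that length, 2.98% held it. Irgm1 and Gbp3 each held 2 matches that overlap. Gbp3 has another RefSeq start, whose window held 0 ISRE and 0 GAS cores. The GAS core, searched as TTC, any 3 bases and GAA, which reads the same on both strands, was found upstream of Igtp, Irgm2 and Gbp7, against 7.02% of the windows, and 0.332% of the windows held both cores. The GAS and ISRE matches did not overlap each other. In Igtp and Irgm2 the GAS core begins at positions -45 and -75 and the ISRE core at -34 and -64. These neighbouring genes were identical at 194 of 250 upstream bases (77.6%) when set side by side without gaps, while the other pairs of the 6 were identical at 45.6% to 55.2%. A match is a description of the letters and not a bound site.

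**Figure D1:**
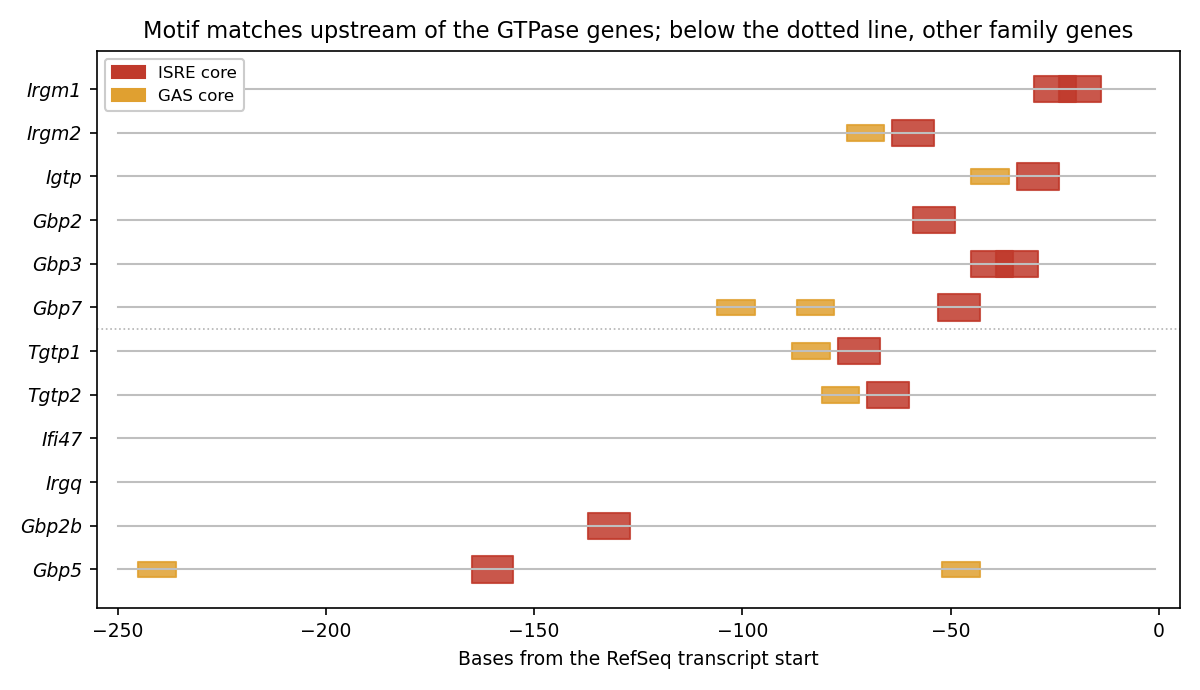
Position of ISRE core (tall red bars) and GAS core (short yellow bars) matches in the 250 bases before the RefSeq transcript start, in bases from the start, for 6 of the GTPase genes and, below the dotted line, 6 other genes of the families. All 6 GTPase genes hold an ISRE core within 64 bases of the start drawn, and 4 of the 6 other genes hold one. Another RefSeq start of Gbp3, without either core, is not drawn.

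On mm9, in the GENCODE M1 annotation, Irgm1 (Entrez 15944) is at chr11:48675470-48685185, Igtp (16145) at chr11:58013058-58021093 and Irgm2 (54396) at chr11:58028530-58036282, with 7436 bases between the end of Igtp and the start of Irgm2. Gbp7 (229900) at chr3:142193302-142213047, Gbp3 (55932) at chr3:142223016-142236173 and Gbp2 (14469) at chr3:142283566-142300972 lie in a row on chromosome 3. Mx1 (17857) at chr16:97668642-97684514 and Mx2 (17858) at chr16:97757690-97782506 are neighbours on chromosome 16. RefSeq lists both MX genes as transcribed pseudogenes in its reference strain, so their RNA is not evidence of a working MX protein. Iigp1 (60440) is at chr18:60535683-60552281. RefSeq and GENCODE M1 starts differ for some genes. The printed Irgm1 sequence lies within the GENCODE span of Irgm1, and that of Gbp2 runs past the GENCODE start of Gbp2. Close copies can trade reads in counting: of the stretches of 50 bases in each gene's transcripts, 10.1% of those of Igtp also occur in Irgm2, 6.71% of those of Mx2 in Mx1, and between 0.0905% and 6.86% of those of the other 7 genes occur in another gene.

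The libraries held 18121520 to 42486438 reads in genes. Sdhc, the targeted gene, fell from 87.8 FPKM (fragments scaled to transcript length and library size) at day 0 to 26.5, 32.8 and 36.9 FPKM in the exp day 16 replicates, against 90.5 FPKM and 47.5 to 50.5 FPKM in ctl. At day 20 it had 42.5 FPKM in exp and 54.7 in ctl. Day 16 replicates 2 and 3 of each line resembled each other (Pearson r across genes 0.995 in exp and 0.997 in ctl) more than replicate 1 (0.951 to 0.981), so counts of genes past the threshold at day 16 are also given for replicates 2 and 3 alone. Fibroblast markers summed to 3027 to 4454 FPKM in exp and 2964 to 3434 in ctl. The immune list of 12 markers summed to 6.03 to 11.1 FPKM in exp and 10.6 to 11.4 in ctl. This sum was led by Cd68 (2.59 to 5.91 in exp, 4.65 to 6.32 in ctl) and Cd14 (2.71 to 3.29 and 3.76 to 5.38). Fcer1g reached 1.68 FPKM in exp and 1.05 in ctl. Adgre1, Tyrobp and Cd3e were at 0 in all libraries, and Ptprc and Itgam at 0 in exp and under 0.01 in ctl. The epithelial list of 6 markers summed to 9.26 to 157 FPKM in exp, led by Krt14 and Krt18, and to 1.41 to 2.11 in ctl. In exp this sum was 157 at day 16 replicate 1 and 121 at day 20 but 9.26 and 12.1 in replicates 2 and 3, and its part in the values below was not tested. In bulk RNA, fewer cells with a transcript and less of it per cell cannot be told apart.

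The levels of the GTPases crossed over between the lines. At day 0 all 7 IRG and GBP genes were lower in exp than in ctl, and from day 16 on 6 of these 7 were higher in exp, with Gbp2 as the exception. In exp each of the 9 genes was higher at day 20 than at day 0, by 1.47-fold (Mx1) to 9.84-fold (Iigp1). In ctl the day 20 level was 0.438 to 1.07 times that of day 0, with Irgm1 the only gene above 1. By mean FPKM over the 16 libraries, a scale corrected for length, the order was Irgm1 (38.0), Igtp (11.0), Irgm2 (8.26), Gbp2 (4.55), Iigp1 (2.49), Gbp3 (2.47), Gbp7 (2.14), Mx2 (0.961) and Mx1 (0.854). The ranges of all neighbours in that order overlapped except those of Irgm1 and Igtp.

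**Figure D2:**
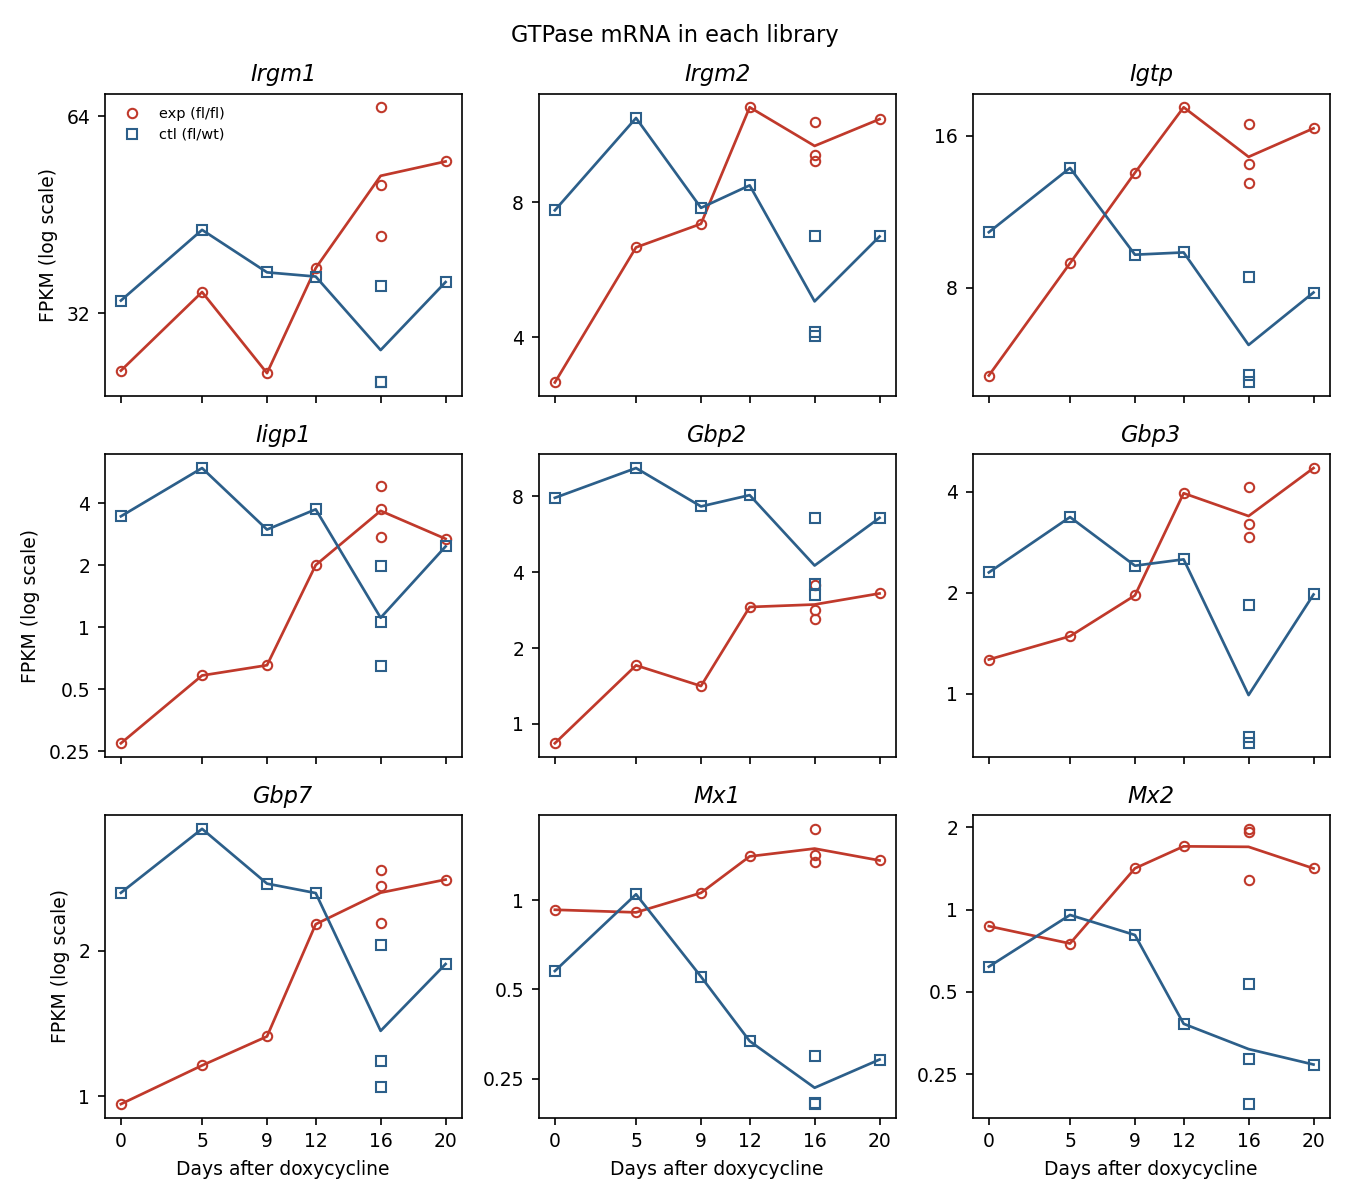
FPKM on a log scale against days after doxycycline, 1 panel per gene. Each open symbol is 1 library (red circles exp, blue squares ctl), and lines join the geometric mean of each day. The red line starts below the blue one in the 7 IRG and GBP panels and ends above it in every panel except that of Gbp2.

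Irgm1 and Irgm2 belong to the IRGM subclass, regulators that keep effector IRG proteins off the cell's own membranes. Irgm1 in exp had 26.2, 34.5, 25.9 and 37.5 FPKM at days 0, 5, 9 and 12, then 66.1, 42.1 and 50.3 in the day 16 replicates and 54.6 at day 20. The ctl libraries had 33.5, 42.9, 37.0 and 36.4 FPKM, then 35.2, 25.1 and 25.1, and 35.7 at day 20. The lines were thus near each other at day 12 (ratio 1.03), and the day 16 libraries did not overlap. Irgm2 in exp had 3.17, 6.34, 7.16 and 13.0 FPKM over the first 4 days, 12.1, 10.2 and 9.87 at day 16 and 12.3 at day 20. In ctl it had 7.68, 12.3, 7.77 and 8.72 FPKM, then 6.72, 4.03 and 4.10, and 6.71 at day 20. The exp line had overtaken ctl by day 12 and stayed above it in all later libraries.

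Igtp, also called Irgm3 and of the same subclass, crossed earliest of the IRG and GBP genes. In exp it had 5.36, 8.95, 13.5 and 18.2 FPKM, then 16.9, 12.9 and 14.1 at day 16 and 16.6 at day 20. Its ctl levels were 10.3, 13.8, 9.30 and 9.40 FPKM, then 8.40, 5.36 and 5.19, and 7.83 at day 20. It was the only IRG or GBP gene above ctl at day 9, with an exp to ctl ratio of 1.45. Iigp1, an effector IRG that loads onto pathogen vacuoles, had the lowest starting level of the 9 in exp. In exp it had 0.273, 0.583, 0.654 and 2.005 FPKM, then 2.74, 4.87 and 3.74 at day 16 and 2.69 at day 20. In ctl it had 3.46, 5.93, 2.98 and 3.74 FPKM, then 1.99, 0.648 and 1.07, and 2.47 at day 20. At day 20 the lines were close again (ratio 1.09).

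The GBP genes, whose products coat pathogen vacuoles and membranes, were all lower in exp at days 0 to 9. Gbp2 in exp had 0.838, 1.71, 1.41 and 2.91 FPKM, then 3.58, 2.83 and 2.61 at day 16 and 3.29 at day 20. The ctl line had 7.90, 10.4, 7.30 and 8.09 FPKM, then 6.59, 3.58 and 3.26, and 6.58 at day 20. It is the only one of the 9 genes that was higher in ctl in every pairing by day and replicate number, although the day 16 libraries overlapped. Gbp3 in exp had 1.27, 1.49, 1.97 and 3.96 FPKM, then 4.14, 3.20 and 2.93 at day 16 and 4.70 at day 20. In ctl it had 2.30, 3.36, 2.41 and 2.52 FPKM, then 1.84, 0.744 and 0.713, and 1.98 at day 20. Its exp libraries were above all ctl libraries of the same day from day 12 on. Gbp7 in exp had 0.964, 1.16, 1.33 and 2.27 FPKM, then 2.28, 2.94 and 2.72 at day 16 and 2.80 at day 20. Its levels in ctl were 2.63, 3.57, 2.75 and 2.63 FPKM, then 2.05, 1.05 and 1.18, and 1.88 at day 20. Here exp passed ctl only at day 16, and replicate 1 of the 2 lines was nearly level.

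The MX genes differed from the IRG and GBP genes in their start, because exp was not the lower line at day 0. Mx1 in exp had 0.928, 0.909, 1.06 and 1.40 FPKM, then 1.34, 1.74 and 1.42 at day 16 and 1.36 at day 20. In ctl it had 0.577, 1.05, 0.552 and 0.335 FPKM, then 0.299, 0.206 and 0.207, and 0.291 at day 20. Mx2 in exp had 0.869, 0.751, 1.42 and 1.70 FPKM, then 1.29, 1.97 and 1.92 at day 16 and 1.41 at day 20. For ctl the values were 0.618, 0.956, 0.807 and 0.382 FPKM, then 0.532, 0.194 and 0.285, and 0.271 at day 20. For both genes ctl was slightly higher at day 5 and exp was higher at every other day. The MX levels rest on few reads, 19 to 203 per library.

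The gap at day 0 was present in the library taken at the start of induction. The exp to ctl ratio, with a 95% interval from an exact (Clopper-Pearson) binomial split of the 2 read counts that covers counting error only, was 0.0790 (0.0455 to 0.128) for Iigp1, from 17 and 346 reads. It was 0.106 (0.0754 to 0.146) for Gbp2, from 41 and 621 reads. For Gbp7 it was 0.366, for Irgm2 0.413, for Igtp 0.520 and for Gbp3 0.550, and the interval of each lay below 1. Irgm1 differed least, at 0.781 (0.728 to 0.839). For Mx1 the ratio was 1.61 (1.09 to 2.38) and for Mx2 1.41 (0.907 to 2.17), an interval that includes 1. These intervals compare 2 libraries and hold no spread between cultures.

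Day by day, the median exp minus ctl difference over the 9 genes on the log2(FPKM + 1) scale went from -0.83 at day 0 and -0.81 at day 5 to -0.20 at day 9 and 0.50 at day 12. It was 0.76, 1.15 and 1.09 in the day 16 pairs by replicate number and 0.78 at day 20. The median over the 12559 genes with a mean of at least 1 FPKM lay between -0.02 and 0.08 at every one of these points. Of the 9 genes, exp was higher in 2, 0, 3 and 6 at days 0, 5, 9 and 12, and in 8 in each day 16 pair and at day 20.

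**Figure D3:**
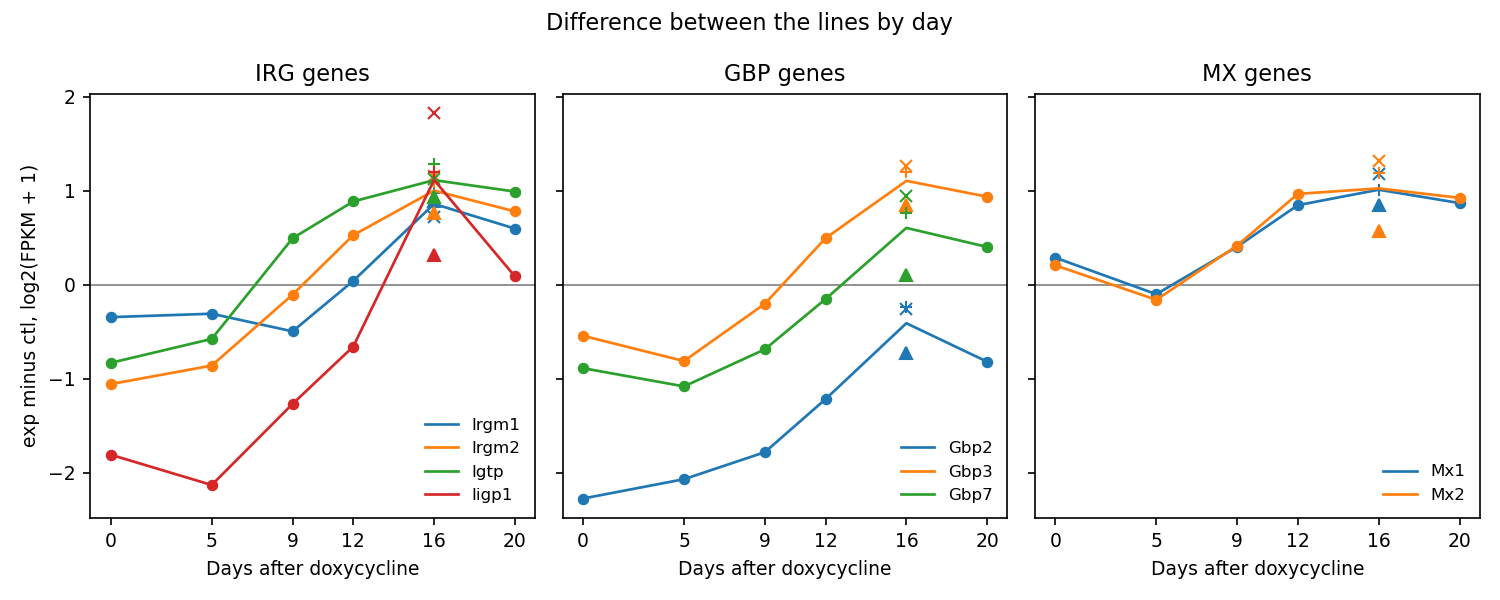
Difference between the lines (exp minus ctl, log2(FPKM + 1)) against days after doxycycline for the IRG, GBP and MX genes. Filled circles are single library pairs, and at day 16 triangles, crosses and plus signs are replicates 1, 2 and 3, with lines through the mean of each day. IRG and GBP genes start below 0, Gbp2 and Iigp1 furthest, and all except Gbp2 are above 0 at days 16 and 20.

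At day 16, where the lines can be compared over replicates, the mean level of Irgm1 was 52.8 ± 12.2 FPKM (SD, n = 3) in exp against 28.5 ± 5.85 FPKM (SD, n = 3) in ctl. Irgm2 had 10.7 ± 1.20 and 4.95 ± 1.53, Igtp 14.6 ± 2.06 and 6.32 ± 1.80, and Iigp1 3.78 ± 1.07 and 1.23 ± 0.687 FPKM. Gbp3 had 3.42 ± 0.633 and 1.10 ± 0.642, and Gbp7 2.65 ± 0.334 and 1.43 ± 0.546. Mx1 had 1.50 ± 0.209 and 0.237 ± 0.0532, and Mx2 1.73 ± 0.384 and 0.337 ± 0.175. For these 8 genes the exp libraries all lay above the ctl libraries. They did so for 15.5% of the 12533 genes tested, which leave out Mx1, and for 7 of the 8 GTPase genes among those. Gbp2 overlapped, with 3.01 ± 0.506 in exp and 4.48 ± 1.84 in ctl.

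**Figure D4:**
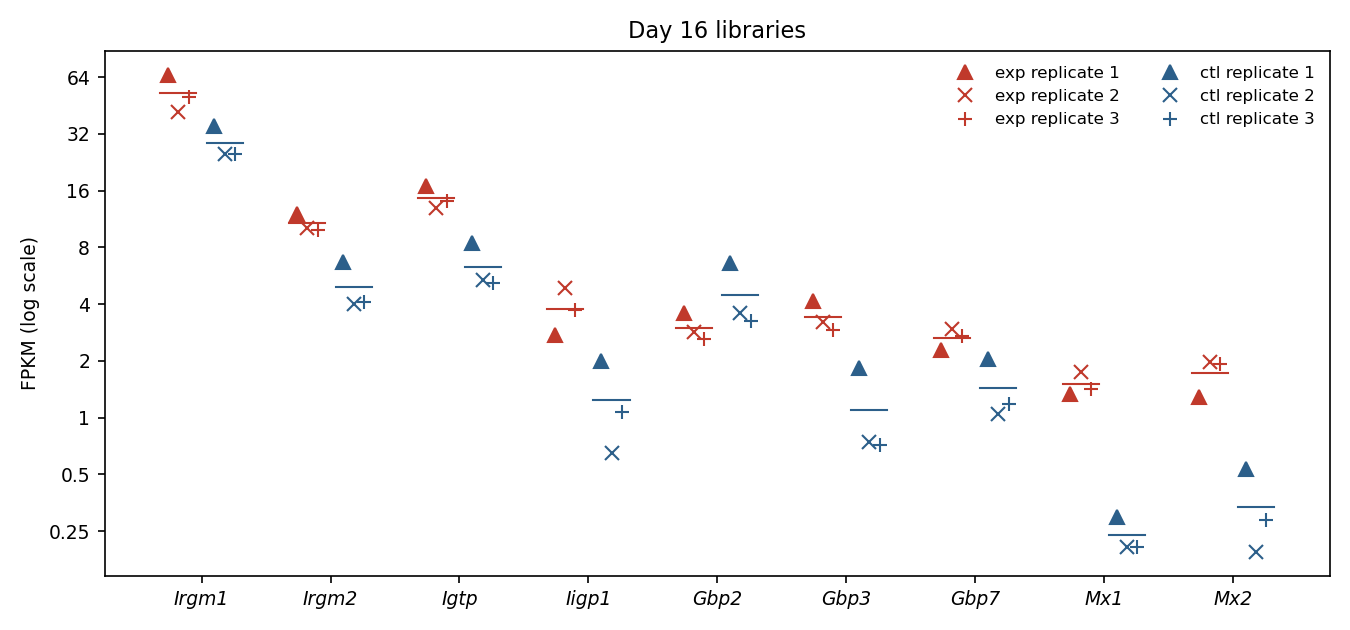
FPKM on a log scale in the 6 day 16 libraries for each of the 9 genes (red exp, blue ctl; triangles, crosses and plus signs are replicates 1, 2 and 3; bars are means). The lines do not overlap except for Gbp2, and ctl replicate 1 is the highest ctl library for every gene.

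In limma, fitted to log2(FPKM + 1) over all genes with a mean of at least 1 FPKM, 8 of the 9 genes were tested at day 16 and Mx1 fell under the minimum. Of the 8, 4 passed a Benjamini-Hochberg adjusted p of 0.05, all higher in exp, beside 6.1% of all genes in either direction and 3.1% higher. As the genes were picked with such results known, nothing is read from that share. The 4 were Igtp at 1.11 ± 0.19 (log2 difference ± SE), Gbp3 at 1.11 ± 0.23, Mx2 at 1.03 ± 0.17 and Irgm2 at 1.00 ± 0.19. Those that did not pass were Iigp1 at 1.12 ± 0.27, Irgm1 at 0.86 ± 0.20, Gbp7 at 0.61 ± 0.18 and Gbp2 at -0.41 ± 0.24. The median of the 8 was 1.01, against -0.01 over all genes.

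Replicate 1 moved these values. In the replicate 1 pair the difference was 0.32 for Iigp1 and 0.10 for Gbp7, against 1.51 and 0.86 as the mean of pairs 2 and 3. For Irgm1 both were alike, 0.89 and 0.85. All 9 genes were higher in ctl replicate 1 than in the mean of ctl replicates 2 and 3, by 1.40-fold (Irgm1) to 2.53-fold (Gbp3). In exp, Irgm1, Irgm2, Igtp, Gbp2 and Gbp3 were higher in replicate 1 (1.21 to 1.43 times) and Iigp1, Gbp7, Mx1 and Mx2 lower (0.636 to 0.848 times). With replicates 2 and 3 alone, 8 genes passed, 7 higher and Gbp2 lower, beside 34.7% of all genes in either direction and 17.7% higher. With exp replicate 2, exp replicate 3, ctl replicate 2 or ctl replicate 3 left out, none passed in limma, and all genes past the threshold then fell from 765 to as few as 197.

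Over time, the slope of each line was fitted per 20 days over all 16 libraries, for the 7 genes with a mean of at least 1 FPKM, which leaves out both MX genes. In exp all 7 slopes were positive and 6 passed the threshold, beside 4.95% of all genes in either direction and 1.36% upward. Iigp1 had the steepest, 2.16 ± 0.50 log2 units per 20 days, followed by Irgm2 at 1.59 ± 0.36, Gbp3 at 1.37 ± 0.36, Igtp at 1.36 ± 0.33, Irgm1 at 1.17 ± 0.29 and Gbp7 at 1.13 ± 0.27. Gbp2, at 1.26 ± 0.35, did not pass. Without exp day 16 replicate 1, or without all day 0 or all day 16 libraries, none of the 7 passed. Leaving out exp day 16 replicate 2 or 3 left 3 and 2 past the threshold. All genes past the threshold within exp numbered 249 to 466 with 1 day 16 replicate left out, in place of 622.

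In ctl all 7 slopes were negative, from -0.32 ± 0.29 (Irgm1) to -1.28 ± 0.50 (Iigp1), and the other 5 lay between -0.82 and -0.87. Their size depended on the days fitted. Without day 16 the slope was -0.016 for Irgm1, -0.27 for Gbp3, -0.34 for Gbp2, -0.35 for Irgm2, -0.51 for Igtp and -0.56 for Iigp1. Without day 0 it was steeper, at -0.64 for Irgm1 and -1.95 for Iigp1. None of the 7 passed in limma, beside 0% of all 12559 genes. Of all genes, 203 had an unadjusted limma p under 0.05, 6 of the 7 GTPase genes among them. As the 7 were selected on these same libraries, nothing is read from that count. limma voom on recovered reads also called 0 genes. The medians of the 7 were 1.36 in exp and -0.82 in ctl, against -0.09 and -0.03 over all genes.

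The difference between the slopes, from a fit with a day term shared by the lines, was positive for all 7 genes. It was 3.44 ± 0.77 for Iigp1, 2.42 ± 0.38 for Irgm2, 2.23 ± 0.38 for Igtp, 2.19 ± 0.46 for Gbp3, 2.13 ± 0.46 for Gbp2, 1.95 ± 0.40 for Gbp7 and 1.49 ± 0.43 for Irgm1. Only Irgm2 passed the threshold, beside 0.207% of all genes in either direction and 0.183% upward, and 2 genes passed with the replicate number as a block. None passed without day 0, without day 16, or without any 1 of exp and ctl day 16 replicates 2 and 3. All genes past the threshold here numbered 2 to 35 with 1 day 16 replicate left out, in place of 26. Gbp2, which never overtook ctl, had a slope difference near that of Gbp3 (2.13 against 2.19), as its gap narrowed from -2.28 at day 0 to -0.82 at day 20 on the log2(FPKM + 1) scale.

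**Figure D5:**
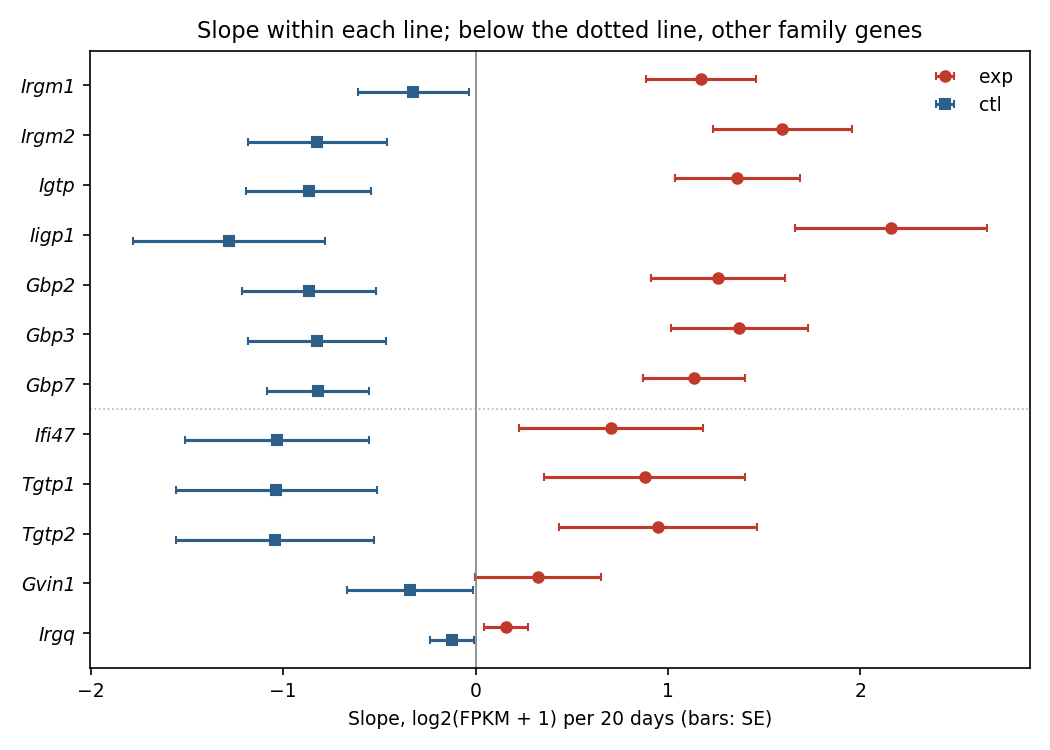
Slope within each line, in log2(FPKM + 1) per 20 days, with SE bars (red circles exp, blue squares ctl), for the 7 GTPase genes tested and, below the dotted line, 5 other genes of the families. All exp slopes are positive and all ctl slopes negative, and among the GTPase genes the exp slopes run from 1.13 to 2.16.

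By the median over pairs, the 9 genes followed each other more closely within a line than over both. Over the 36 pairs, Pearson r of log2(FPKM + 1) had a median of 0.95 within the 8 ctl libraries (0.74 to 0.99) and 0.80 within the 8 exp libraries (0.38 to 0.97). Over all 16 libraries the median was 0.69 and the lowest -0.42, for Gbp2 and Mx1, which had r of 0.79 within each line. Libraries of 1 line belong to 1 time course, so these are descriptions. The genes most like the mean of the 7 tested GTPase genes over 16 libraries were Tlr3 (r 0.94), a sensor of double-stranded RNA, Trim12c (0.93), Parp14 (0.92), Ddx58 (0.88), which encodes the RNA sensor RIG-I, Trim21 (0.87), H2-Q9 and H2-Q7 (0.87 each), close copies that may trade reads, and Islr (0.87). Ddx58 was also the closest gene to Irgm2 and to Igtp (0.96 each). Iigp1 and Gbp7 were closest to each other (0.96), Gbp3 to Irgm2 (0.95), Irgm1 to Arhgap29 (0.90) and Gbp2 to Fbxo21 (0.97).

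Of the other genes of the families, 14 were in the files and 5 had a mean of at least 1 FPKM: Ifi47, Tgtp1 and Tgtp2, which are effector IRG genes, Irgq and Gvin1. None of the 5 passed any of the 4 limma comparisons or voom on recovered reads. At an unadjusted limma p under 0.05 there were 1 at day 16, 3 in the slope difference, 0 within exp and 1 within ctl. Over all genes the count at day 16 was 2822 of 12533. Of 12559 genes there were 1388 in the slope difference, 2961 within exp and 203 within ctl. With day 16 replicates 2 and 3 alone, 4 of the 5 passed, beside the 34.7% of all genes: Ifi47 at 0.67 (limma adjusted p = 0.00172), Tgtp1 at 0.42 (0.00773), Tgtp2 at 0.40 (0.00953) and Irgq at -0.21 (0.0237). Within exp, Ifi47 passed without day 16 replicates 2 and 3 (limma adjusted p = 0.0259). The day 16 difference had a median of 0.14 over the 5, and that of the slope difference was 1.73, against 1.01 and 2.19 for the GTPase genes above. Ifi47 stood at 2.09 (exp) and 5.38 FPKM (ctl) at day 0 and at 4.11 and 4.62 FPKM at day 20, so its gap narrowed without a crossing at that day, and its slope difference was 1.73 ± 0.64 (limma adjusted p = 0.348). Tgtp1 and Tgtp2, near-identical copies whose reads may be split between them, had slope differences of 1.91 ± 0.79 and 1.99 ± 0.78 (limma adjusted p = 0.397 and 0.384). Tgtp1 in ctl had 4.58 FPKM in day 16 replicate 1 but 1.08 and 1.23 in replicates 2 and 3. Gvin1 had a slope difference of 0.66 ± 0.47. Irgq had 8.42 to 10.7 FPKM in exp and 12.0 to 15.4 in ctl, with a slope difference of 0.28 ± 0.14. Gbp6, the most abundant of the remaining GBP genes, reached 0.768 FPKM.

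The pathway upstream of the GTPases was described with a list of 33 genes of interferon signalling, of which 22 were tested. The list was chosen with earlier results of these data known. At day 16, 5 passed in limma, all higher in exp, among them Usp18, which restrains type I interferon receptor signalling, by 2.08 ± 0.10 (adjusted p = 0.000361), Irf7 by 1.81 ± 0.13 (0.00138), Irf9, a transcription factor of type I interferon signalling, by 1.03 ± 0.08 (0.00178), and Stat2 by 0.88 ± 0.12 (0.0164). Of all genes tested at day 16, 6.1% passed in either direction and 3.1% higher. The median of the 22 was 0.10. Leaving out exp or ctl replicate 2 or 3 left 3 of the 22 past the threshold. Replicates 2 and 3 alone gave 9, 8 higher and 1 lower, beside 34.7% of all genes in either direction and 17.7% higher. Stat2 lost its call without any 1 of the libraries except exp replicate 1, with limma adjusted p from 0.0521 to 0.0827. Usp18 in exp had 1.39 FPKM at day 0, 9.13 at day 12, 8.36, 9.76 and 9.82 at day 16 and 9.05 at day 20. In ctl it had 2.34 FPKM at day 0, 1.99 at day 12, 1.46, 1.22 and 1.61 at day 16 and 1.19 at day 20. Like the IRG and GBP genes other than Gbp2, it began lower in exp and ended higher.

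The slope difference passed in limma for 2 genes of the list, beside 0.207% of all genes. They were Usp18 at 3.16 ± 0.33 (limma adjusted p = 0.00937) and Irf9 at 1.29 ± 0.21 (limma adjusted p = 0.0395). Without day 0 or without day 16 neither passed, with limma adjusted p from 0.105 to 0.286. Usp18 was also lost without day 16 replicates 2 and 3 (0.0590) and with the replicates averaged (0.126), by limma adjusted p. Irf9 was lost under 15 alternatives, among them no filter on low values (0.0644), no day factor (0.118), without day 5, 9 or 12 (0.0579 to 0.0864) and without any 1 day 16 library except exp replicate 1 (0.0627 to 0.0994), by limma adjusted p. Within exp, 4 genes rose over time in limma, among them Usp18 by 2.31 ± 0.28 and Irf7 by 1.74 ± 0.32 log2 units per 20 days. Tyk2 and Socs3 fell. Over all genes, 4.95% passed within exp in either direction and 1.36% upward. Socs3, a feedback inhibitor of cytokine receptors, had a slope of -2.51 ± 0.44 (limma adjusted p = 0.0107) and stood at 174.6 FPKM in the exp day 0 library against 36.6 at day 5. Without day 0 its slope was -0.999 (limma adjusted p = 0.213), and without day 16 it was -2.73 (0.0787). Without day 0 the exp slopes of Usp18 and Irf7 did not pass, with limma adjusted p of 0.0650 and 0.148, and Irf7 was also lost without day 16 (0.104) and with the replicates averaged (0.0576).

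Transcripts of the interferons on the signalling list were at or near 0, and interferon genes outside that list were not looked at. Ifng, Ifna1, Ifna4, Ifnl2 and Ifnl3 were listed at 0 in all 16 libraries, where a count of 0 allows up to 3 reads per library. Ifnb1 had 6 reads over the 16 libraries and at most 2 in any of them, Ifnk had 2 and Ifne 13. Ifna2 had 0.0963 FPKM in 1 library and 0 in the others. A further list held 15 autophagy genes, mostly for ATG8 proteins, which guide IRG and GBP proteins to vacuoles, and for their conjugation. Ulk1, Becn1 and Sqstm1 are on that list but are not conjugation genes. None of the 15 passed at day 16 or in the slope difference in limma, and voom also called 0. In each of these comparisons 1 gene had an unadjusted limma p under 0.05, beside 2822 of 12533 and 1388 of 12559 over all genes. At day 16 Ulk1 passed with the replicate block (limma adjusted p = 0.0431). With replicates 2 and 3 alone 4 of 14 passed, 1 higher and 3 lower, beside 34.7% of all genes in either direction. Among the 4 were Ulk1 at -0.29 and Becn1 at -0.18. Only Gabarapl2 passed within exp, at -0.67 ± 0.17 per 20 days (limma adjusted p = 0.0390), beside 4.95% of all genes. That call was lost under 15 alternatives, among them no filter on low values, both other scalings and any 1 day 16 library left out, and without day 0 the slope was -0.23 (limma adjusted p = 0.606). Of the 14 large GTPases of the dynamin superfamily that are not known as interferon-inducible, 13 were tested and none passed in limma or voom over all replicates. With day 16 replicates 2 and 3 alone, 4 passed, beside 34.7% of all genes in either direction. All 4 were lower in exp: Dnm1, Ehd1, Ehd2 and Mfn2, at -0.14 to -0.23. Ehd3 passed within exp without day 16 replicates 2 and 3 (limma adjusted p = 0.0268). At an unadjusted limma p under 0.05 there were 2 at day 16, 0 in the slope difference and 2 within exp. Over all genes the count at day 16 was 2822 of 12533. Of 12559 genes there were 1388 in the slope difference and 2961 within exp.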

How the data were processed

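Libraries for mRNA were made from total RNA with the TruSeq v2 kit, 16 in all, per the labels' protocols. The authors deposited FPKM per Entrez gene ID, 1 file per library. Per the submitters' processing notes, reads were handled with Bowtie2 2.2.3 and the build was mm9. How reads were counted, and with which annotation and strand, is not given in the sources used here. A symbol was found for 24416 of 24485 IDs. Titles gave each sample's line and day.

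Tests were run in R 4.3.3 with limma 3.58.1 and statmod 1.5.0 on values of log2(FPKM + 1), which understates changes of low genes, for genes with a mean of at least 1 FPKM over the libraries fitted, with eBayes set to trend and robust, two-sided, at a threshold of 0.05 after Benjamini-Hochberg adjustment over all genes tested. The fits were checked on simulated data. Whole reads were recovered from the FPKM steps for all 18966 genes with reads in at least 2 libraries (100% within 0.02 read), and voom on them was an alternative. The other alternatives were pseudocounts, filters, scalings, libraries or days left out, and the replicate block. Same-numbered day 16 replicates deviated together (r = 0.38, 0.27 and 0.33 over 12533 genes), though replicates 2 and 3 also did so across numbers (0.21 and 0.40).

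Named genes were the 9 members, the other family genes with a mean of at least 1 FPKM, up to 4 genes of smallest p per other list and comparison, and the 8 genes most like the members plus the closest to each member. Tyk2 and Gbp6 are named outside that rule where a count or list is spelled out, and 1 gene of the signalling list is not reported here. The members and lists were chosen with earlier results of these data known.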

Additional observations from a re-analysis of the deposited data

Results flagged for a closer look

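The slopes over time differed between the lines, past the threshold of limma, for 2 interferon signalling genes, Usp18 at 3.16 and Irf9 at 1.29 log2 units per 20 days. The call was lost under 4 alternatives for Usp18 and 15 for Irf9. The signalling list was itself chosen with earlier results of these data known. Irgm2 also passed, at 2.42. It was selected on these libraries, so its value is a description, and it did not pass without any 1 of days 0, 5, 9, 12 or 16. In addition, 6 of the 9 GTPase genes (Irgm1, Irgm2, Igtp, Iigp1, Gbp3 and Gbp7) were lower in exp at day 0 and higher in each of the day 16 pairs. This reversal as such was not tested, because day 0 has 1 library per line.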

How the results depend on the processing

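Over 605 values of single GTPase genes under the alternatives, the sign of the difference or slope was that reported in all 605, and 105 moved by more than 1 SD. At day 16, 4 of the 9 genes passed the threshold, 2 with a minimum mean of 5 FPKM (3 tested), 0 to 5 with 1 replicate left out, and 8 with replicates 2 and 3 alone, an alternative chosen after seeing the data. All genes past the threshold at day 16 then numbered 4326 in place of 765, and 197 to 1599 with 1 replicate left out. For the slope difference 1 gene passed. With a pseudocount of 5, quantile normalization, rescaling by median of ratios, limma with neither trend nor robust, the replicate block, no day 20, or no day 16 replicate 1 in both lines (also chosen after seeing the data) 2 passed. With no filter, without day 0, 5, 9, 12 or 16, without day 16 replicates 2 and 3, or with replicates averaged 0 passed, and with 1 replicate left out 0 to 2. For the slope within exp 6 passed, 3 with a minimum of 5 FPKM (3 tested), 1 with voom, 0 without day 0, without day 16, with replicates averaged or without day 16 replicate 1 in both lines, and 0 to 7 with 1 replicate left out. Within ctl 0 passed throughout. All genes past the threshold numbered 26 in the slope difference, 2 to 35 with 1 replicate left out and 50 without day 16 replicate 1 in both lines. Within exp they numbered 622, 249 to 466 and 96 in the same order. The cause of these changes was not tested. The replicate block changed no other count of the 9 genes. The lowest counts were 17 reads for Iigp1 and 19 for Mx2.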
